A study of Mus musculus with 12 samples.

Results

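Cytosolic ribosomal proteins were followed at the transcript level in KY-1 and KY-2, a pair of mouse natural killer (NK) cell lines. The genes were chosen by symbol alone: Rpsa, Rplp0, Rplp1, Rplp2 and every symbol of Rpl or Rps followed by a digit, without the Rps6k kinases, Rps19bp1 and symbols with -ps. Only probe sets annotated with 1 symbol were used, and the brightest stood for its gene. This gave 62 of 19938 genes. The subunit was taken from the symbol alone, with 24 for the small (Rps) and 38 for the large subunit (Rpl). Rps23rg1, Rps4l and Rpl7l1 are therefore counted with them. Of 88 protein-coding RefSeq genes that match the same rule, 61 are among them, 20 are read only by probe sets with several symbols, and 7 were not analysed here. The remaining member, Rps4l, is a transcribed pseudogene in RefSeq.

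All cells carried the p53KO genotype, were cultured with 200 U/mL human IL-15, and were transduced with GFP or with GFP-P2A-FLAG-Myb before sorting of GFP+ cells. The labels name no promoter for either vector and do not say whether a line is 1 clone. There were 3 GFP and 4 Myb arrays from KY-1, against 2 GFP and 3 Myb arrays from KY-2. Within KY-1, GFP arrays 1 and 2 lay closer to each other than other arrays of a group did, as did Myb arrays 3 and 4, and either pair was averaged, which left 2 GFP and 3 Myb replicates per line. Whether the replicates were separate cultures is not in the labels, and a p-value here covers no more than the scatter among the samples at hand, which may be technical.

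The ribosome is built of a small subunit, which reads the mRNA, and a large subunit, which joins amino acids. Most of its proteins are present once in each ribosome, and their mRNAs are among the most abundant of a growing cell. Most begin with a run of pyrimidines through which the kinase mTORC1 adjusts their translation, so that protein output can change while the mRNA does not. Ribosomal protein genes have many processed pseudogenes, and a probe set may read several near-identical copies, which leaves its value uncertain as to the member.

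Start regions of the genes that the comparisons turn on are given from RefSeq (GRCm38.p6), as 80 bases before and 20 bases from the annotated start, 5′ to 3′ on the gene's strand. Capitals mark CCGGAAG on either strand (CTTCCGG when read on the other), the core that ETS family factors recognise, in Rps7 and Rpl26. In Rps6, shown as the classical S6 kinase substrate, capitals mark the pyrimidine run at the start. The Rpl39l stretch as printed holds neither. Its longer start window, as counted in the next paragraph, holds 2 matches of CCGGAAG, against 1 each in Rps7, Rpl26 and Rps6. The positions are chr12:28635934-28636033 (minus strand) for Rps7, chr11:68901486-68901585 (plus strand) for Rpl26, chr16:10170148-10170247 (plus strand) for Rpl39l and chr4:86857348-86857447 (minus strand) for Rps6.
Rps7: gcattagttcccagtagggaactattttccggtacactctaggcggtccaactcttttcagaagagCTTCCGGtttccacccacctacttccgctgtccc
Rpl26: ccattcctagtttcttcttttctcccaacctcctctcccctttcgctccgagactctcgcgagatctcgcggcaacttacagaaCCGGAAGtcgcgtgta
Rpl39l: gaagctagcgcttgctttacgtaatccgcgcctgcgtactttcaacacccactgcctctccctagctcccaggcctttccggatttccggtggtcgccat
Rps6: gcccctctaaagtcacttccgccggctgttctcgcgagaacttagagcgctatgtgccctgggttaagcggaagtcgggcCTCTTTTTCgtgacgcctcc

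Start windows of 300 bases were matched for 50 of the 62 members, 59 windows in all because some genes have several starts. CCGGAAG, on either strand, was in 20 of them (33.9%) against 8.86% of all 32851 windows. A C at the annotated start followed by at least 4 more pyrimidines was in 10 member windows (16.9%) against 2.51% of all. The run in Rps6 was 9 bases long. The Myb core AACNG was in 47 member windows (79.7%) against 80.3% of all windows, and the longer form TAACNG, which contains it, in 12 (20.3%) against 23.3%. AAGATGGCG, the letters of a YY1 site, was in 1 member window (1.69%; 1.4% of all), and TATAAA in 6 (10.2%; 13.6% of all). These are matches of letters, and binding was not measured.

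The vector carried Myb as labelled: its log2 level was 7.99 ± 0.07 (SD, n = 2) with GFP and 9.57 ± 0.02 (SD, n = 3) with Myb in KY-1, and 5.05 ± 0.07 and 9.74 ± 0.07 in KY-2. Of 15 measured NK markers, 12, 11, 11 and 10 had a group mean above a log2 level of 8 in KY-1 GFP, KY-1 Myb, KY-2 GFP and KY-2 Myb. Of 11 T cell markers, 0 were above it in KY-1 and 3 in KY-2 (Cd3g, Cd8a and Cd28). B cell, myeloid and erythroid lists had 0 above it in every group, and of 9 mast cell and basophil markers only Kit was, in every group but KY-2 Myb. Cd3g, Cd8a and Cd28 passed that level in KY-2 only, and their part in the line differences was not tested.

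Most ribosomal protein probe sets were bright. The mean over 12 arrays was above 12 on the log2 scale for 43 of the 62 members, a level passed by 120 of all genes (0.602%), members included, and the array medians lay between 5.31 and 5.42. In each of the 4 groups 43 members had a group mean above 12. Rps29, a small-subunit protein, had the highest mean (13.50) and was followed by Rplp1, Rpl23a, Rps10 and Rpl13. The highest value of any probe set on any array was 13.96, so these signals sat near the top of the scale, and whether they respond less to transcript amount there was not tested. The 5 dimmest members were Rps23rg1, a retrogene, Rps4l, Rpl10l, Rpl3l and Rpl39l, at means down to 3.48. Of these, 4 lay below every array median. Rpl3l is known from striated muscle and Rpl10l and Rpl39l from testis. Levels of different probe sets are not amounts of transcript and were not compared further.

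The first question was whether raised Myb moved the ribosomal protein mRNAs. None of the 62 passed limma's test (adjusted p under 0.05 over all 19938 genes) in KY-1, in KY-2, averaged over the lines, or for the difference of the Myb effect between lines. The shares of all genes called were 1.22%, 2.83%, 3.1% and 0.843%. At an unadjusted p under 0.05 the counts were 2 members in KY-1 (11% of all genes), 1 in KY-2 (13.2%), 2 averaged (13.8%) and 0 for the difference (10.3%). Of the 120 genes with a mean above 12, members included, 0 were called in any of these contrasts, so the count of 0 is shared by genes of that brightness.

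The differences were small and their intervals narrow. The median log2 difference of the members was -0.00459 in KY-1, where 28 of 62 were positive, and -0.00771 in KY-2, where 27 were; over all genes it was -0.00134 and 0.0108. In KY-1 the median turned positive when arrays were quantile normalized again (0.00854, with 0.0276 over all genes) or centred on their medians (0.039, with 0.0422 over all genes). The median size of a difference, without its sign, was 0.0493 for members and 0.0914 for all genes in KY-1, and 0.023 and 0.095 in KY-2. The 95% interval lay within 1.5-fold either way for all 62 members in each line, against 92.8% and 91.5% of all genes. Averaged over the lines, it lay within 1.2-fold for 57 members, against 57.1% of all genes, and the exceptions were Rpl12, Rpl32l, Rpl3l, Rpl7l1 and Rps19. Among the 43 members with a mean above 12, the averaged intervals reached from -0.23 to 0.21. The median standard error (SE) in either line was 0.0763 for members and 0.107 for all genes. Most members were far brighter than most genes. Sizes, intervals and SEs were not compared with those of other genes of like brightness.

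**Figure D1:**
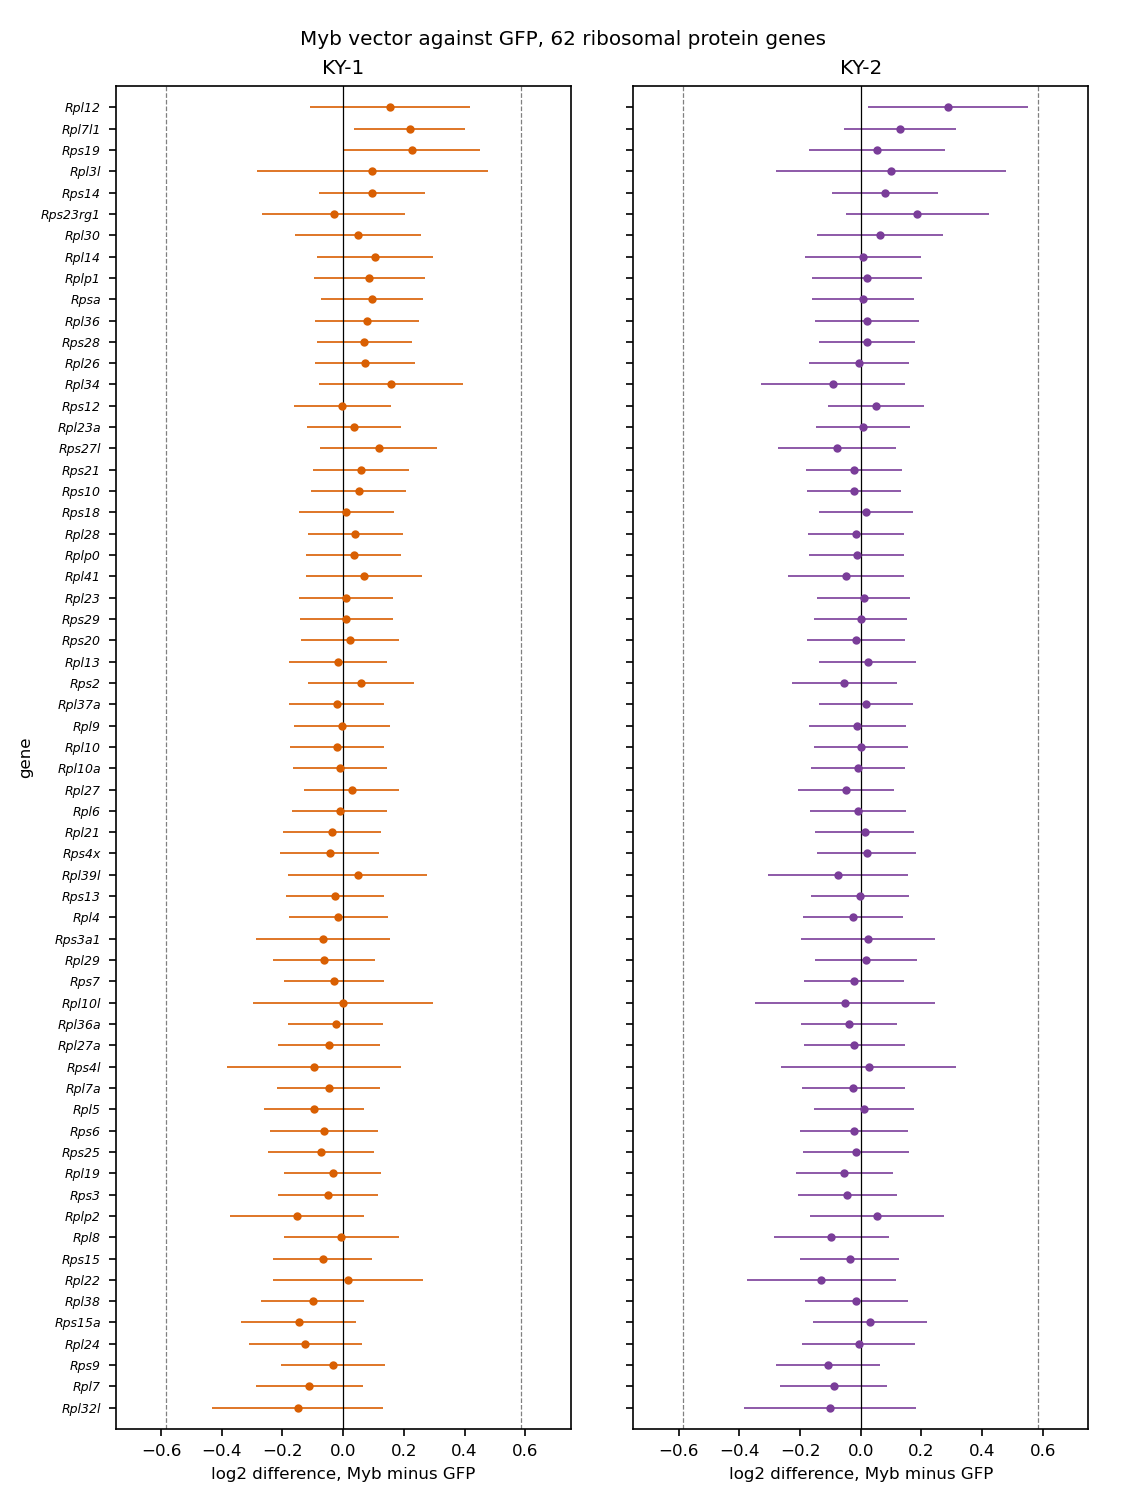
Log2 difference, Myb minus GFP, of 62 ribosomal protein genes in KY-1 (left) and KY-2 (right), ordered by the average of both. Points are limma estimates, bars are 95% intervals and dashed lines mark 1.5-fold; every bar lies inside them.

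No member of either subunit was called for Myb; a difference between the subunits was not tested. In KY-1 the median difference was -0.0157 over 24 small-subunit genes and -0.00459 over 38 large-subunit genes, and in KY-2 it was -0.00137 and -0.00954. Averaged over the lines it was 0.00275 (13 of 24 positive) and -0.01 (15 of 38 positive). Rps6 (12.71 and 12.63 with GFP, 12.66, 12.50 and 12.66 with Myb in KY-1) differed by -0.06 (95% interval -0.24 to 0.11). In KY-2 it read 12.66 and 12.68 with GFP and 12.64, 12.68 and 12.63 with Myb, a difference of -0.02 (-0.20 to 0.16). Its replicates with and without Myb overlapped in both lines. Rpl5, which binds the 5S rRNA and can hold Mdm2, differed by -0.10 (-0.26 to 0.07) in KY-1 and 0.01 (-0.15 to 0.18) in KY-2. Its Myb replicates in KY-1 lay below both GFP replicates, and its 5 probe sets gave -0.27 to -0.10 there; in KY-2 the replicates overlapped, and the probe sets gave -0.05 to 0.01.

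The stalk proteins, which recruit elongation factors to the large subunit, were not called for Myb either. Rplp0, the base of the stalk, had group means of 13.16, 13.19, 13.11 and 13.10 in KY-1 GFP, KY-1 Myb, KY-2 GFP and KY-2 Myb. Rplp1 had 13.38, 13.47, 13.53 and 13.55. Rplp2, its partner, read 8.79 and 8.53 with GFP and 8.58, 8.52 and 8.43 with Myb in KY-1, the most negative estimate of the members there (-0.15, 95% interval -0.37 to 0.07). The averaged GFP arrays were high and the other GFP replicate lay within the Myb values, so the groups overlapped. Between the lines the stalk genes were not called, but some alternatives did call them. Rplp2 differed by -0.19 (adjusted p = 0.23 by limma) with GFP and was called with the replicate number as a block (-0.30, adjusted p = 0.024). Rplp0 differed by -0.10 (adjusted p = 0.306) with Myb and was called with a trended prior (adjusted p = 0.0235), as was Rplp1 with GFP.

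The largest Myb-side estimates came from Rpl7l1, Rps19 and Rpl12, and none of them passed the adjusted threshold. Rpl7l1, an Rpl7-like protein of the nucleolus, read 8.43 and 8.27 with GFP and 8.63, 8.53 and 8.55 with Myb in KY-1, and 8.16 and 8.21 with GFP and 8.28, 8.39 and 8.28 with Myb in KY-2. Every Myb replicate was above every GFP replicate of its line. The difference was 0.22 (SE 0.08, adjusted p = 0.348 by limma) in KY-1, 0.13 (SE 0.08, adjusted p = 0.596) in KY-2 and 0.17 (SE 0.06, adjusted p = 0.185) averaged. Over 17 alternatives the averaged adjusted p ran from 0.059 to 0.466. Rpl7l1 was the only member whose Myb and GFP replicates did not overlap in both lines. Among all genes 10.3% did not overlap in both, whatever the direction.

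Rps19, a small-subunit protein mutated in Diamond-Blackfan anaemia, read 11.32 and 11.29 with GFP and 11.40, 11.62 and 11.58 with Myb in KY-1. The groups did not overlap there, and the difference was 0.23 (SE 0.10, adjusted p = 0.446 by limma). In KY-2 it read 11.11 and 11.40 with GFP and 11.27, 11.32 and 11.33 with Myb, so that the Myb values lay between the GFP values, and the difference was 0.05 (95% interval -0.17 to 0.28). Rpl12, which lies at the base of the stalk, read 6.81 and 6.73 with GFP and 6.98, 7.06 and 7.13 with Myb in KY-2, without overlap. Its difference there was 0.29 (SE 0.12, adjusted p = 0.328). In KY-1 it read 6.82 and 6.64 against 7.12, 6.69 and 6.83, with overlap.

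**Figure D2:**
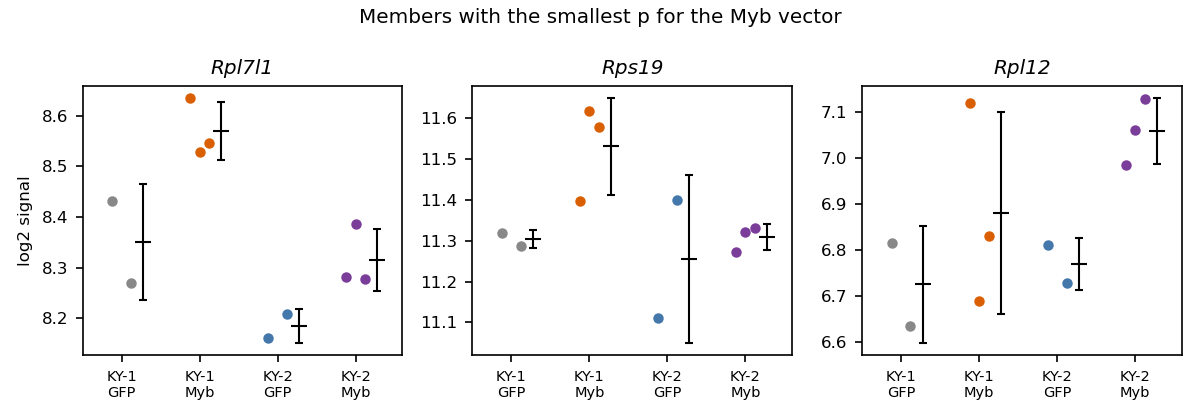
Log2 signal of Rpl7l1, Rps19 and Rpl12, the members with the smallest unadjusted p for the Myb vector. Coloured points are replicates and black bars the mean ± SD of each group (n = 2 for GFP, n = 3 for Myb); Rpl7l1 alone has every Myb point above the GFP points in both lines.

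Replicates with Myb and with GFP did not overlap for 14 members in KY-1 (26.9% of all genes), 11 of them higher and 3 lower with Myb, and for 10 in KY-2 (31% of all genes), 5 higher and 5 lower. Both member shares were below those of all genes. The Myb effects in the lines come from separate arrays: 35 of 62 members had the same sign in both (56.5%, against 52.7% of all genes). Across members the effects had a Pearson r of 0.269 and a Spearman rho of 0.13, against 0.197 and 0.105 over all genes. The difference of the Myb effect between lines ranged from -0.25 (Rpl34) to 0.22 (Rps23rg1).

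The second question was how the lines differ. With the GFP vector, 7 members were higher and 1 was lower in KY-2 than in KY-1, 12.9% of the members, where 28.9% of all genes were called (13.6% higher and 15.2% lower). With the Myb vector, 5 were higher and 2 lower, 11.3% of the members, where 31.6% of all genes were called (14.7% higher and 16.9% lower). At an unadjusted p under 0.05 the counts were 10 members with GFP (38% of all genes) and 12 with Myb (39.7%). Among the 120 genes with a mean above 12, members included, 25 (20.8%) were called with GFP and 32 (26.7%) with Myb. Of the 43 members at that level, 2 and 3 were called. With GFP the higher members were Rps7, Rpl26, Rpl39l, Rpl41, Rpl22, Rpl34 and Rps27l, and the lower one was Rpl30. After median centring, 8 were higher and 0 lower with GFP, where 26.6% of all genes were called. With Myb the higher members were Rps7, Rpl26, Rpl39l, Rpl24 and Rpl36a, and the lower ones Rpl30 and Rpl7l1. The arrays hold RNA of a whole cell population, so fewer cells expressing a gene and less RNA per cell cannot be told apart.

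Only 4 members were called with both vectors, all in the same direction (6.45%, against 22.7% of all genes). Rps7, a small-subunit protein that can also bind Mdm2, read 12.43 and 12.44 in KY-1 GFP and 12.39, 12.37 and 12.45 in KY-1 Myb. In KY-2 it read 12.75 and 12.76 with GFP and 12.71, 12.79 and 12.69 with Myb. Every KY-2 replicate lay above every KY-1 replicate. The log2 difference was 0.32 (SE 0.08, 1.25-fold, adjusted p = 0.0116 by limma) with GFP and 0.33 (SE 0.07, 1.26-fold, adjusted p = 0.00263) with Myb. Its 3 probe sets gave 0.29 to 0.39 with GFP and 0.31 to 0.37 with Myb.

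Rpl39l, a testis-enriched copy of the large-subunit protein Rpl39, read 3.33 and 3.14 in KY-1 GFP, 3.31, 3.34 and 3.19 in KY-1 Myb, 3.77 and 3.87 in KY-2 GFP and 3.77, 3.88 and 3.59 in KY-2 Myb. The lines did not overlap, and all values were below the array medians. The difference was 0.59 (SE 0.11, adjusted p = 0.00243) with GFP and 0.46 (SE 0.09, adjusted p = 0.00258) with Myb. The table has no detection call, and whether this probe set reads above background was not shown, so the size of the difference is uncertain. Its parent Rpl39 is read only by probe sets with several symbols.

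Rpl26, a large-subunit protein near the exit tunnel, read 11.61 and 11.67 in KY-1 GFP, 11.64, 11.73 and 11.76 in KY-1 Myb, 11.92 and 11.89 in KY-2 GFP and 11.91, 11.90 and 11.89 in KY-2 Myb. KY-2 was above KY-1 in every replicate. The difference was 0.27 (SE 0.08, adjusted p = 0.0297) with GFP and 0.19 (SE 0.07, adjusted p = 0.0488) with Myb. The call with GFP was lost in 5 of 18 alternatives, where its adjusted p reached 0.151. The call with Myb was lost in 14 of 18 alternatives, where its adjusted p reached 0.153.

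Rpl30, another large-subunit protein, ran the other way, with 9.24 and 9.13 in KY-1 GFP, 9.32, 9.17 and 9.22 in KY-1 Myb, 8.91 and 8.79 in KY-2 GFP and 8.79, 9.03 and 8.94 in KY-2 Myb. Every KY-2 replicate was below every KY-1 replicate. The difference was -0.34 (SE 0.10, adjusted p = 0.0314) with GFP and -0.32 (SE 0.08, adjusted p = 0.0131) with Myb. With GFP the call was lost in 5 of 18 alternatives, after median centring (-0.27, adjusted p = 0.124) and without any 1 of the 4 GFP replicates (adjusted p up to 0.177). With Myb it was lost in 2, without KY-1 Myb array 1 (adjusted p = 0.0539) or KY-2 Myb array 1 (adjusted p = 0.0536).

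**Figure D3:**
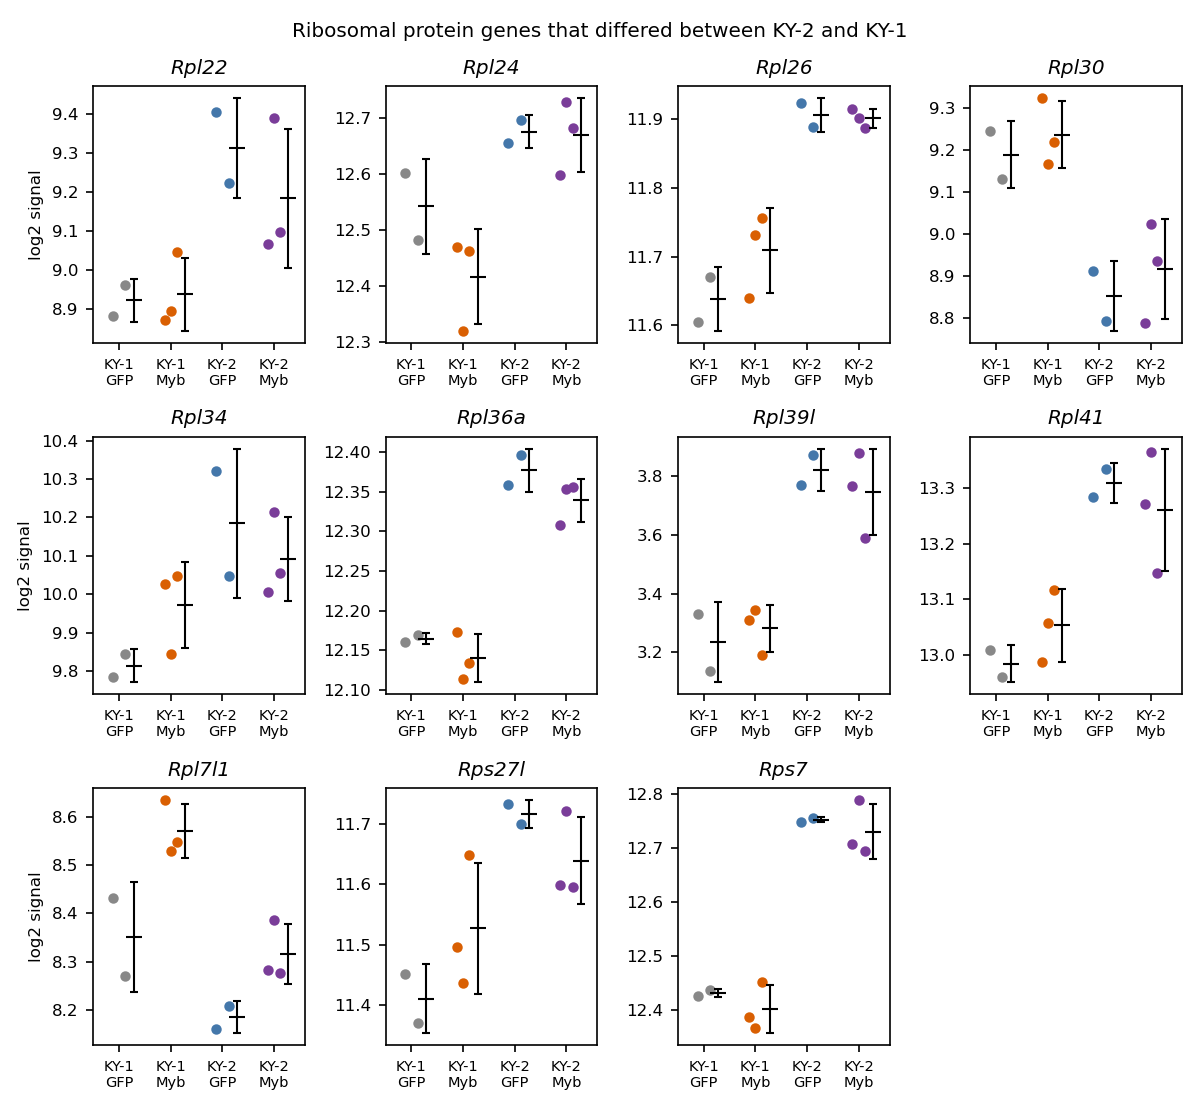
Log2 signal of the 11 ribosomal protein genes called between KY-2 and KY-1 with either vector. Coloured points are replicates and black bars the mean ± SD of each group (n = 2 for GFP, n = 3 for Myb); Rpl30 and Rpl7l1 are lower in KY-2 and the other 9 are higher.

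The other members called with 1 vector had the same sign with the other. Rpl41, a very short basic peptide of the large subunit, differed by 0.33 (adjusted p = 0.0234) with GFP and 0.21 (adjusted p = 0.0624) with Myb. Rpl22, which T cell development depends on, differed by 0.39 (adjusted p = 0.0335) and 0.25 (adjusted p = 0.088). Rps27l, the p53-induced relative of Rps27, differed by 0.31 (adjusted p = 0.0337) and 0.11 (adjusted p = 0.334). Rpl34 differed by 0.37 (adjusted p = 0.036) and 0.12 (adjusted p = 0.409), and its KY-2 GFP replicates stood apart at 10.32 and 10.05.

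Of those called with Myb, Rpl24 differed by 0.13 (adjusted p = 0.336) with GFP and 0.25 (adjusted p = 0.0243) with Myb. Its call was lost in 3 of 18 alternatives, among them without KY-1 Myb array 2 (adjusted p = 0.0838 by limma). Rpl36a read 12.16 and 12.17 in KY-1 GFP, 12.17, 12.11 and 12.13 in KY-1 Myb, 12.36 and 12.40 in KY-2 GFP and 12.31, 12.35 and 12.36 in KY-2 Myb, with no overlap between lines. It differed by 0.21 (adjusted p = 0.0653) and 0.20 (adjusted p = 0.0338). The call with Myb was lost in 11 of 18 alternatives, median centring and a second quantile normalization among them, with an adjusted p up to 0.0943. Rpl7l1 differed by -0.17 (adjusted p = 0.217) and -0.26 (adjusted p = 0.0218). Its call with Myb was lost in 3 of 18 alternatives, with an adjusted p up to 0.078 by limma. No member's difference between these vectors passed the test, and for Rpl34 it was -0.25, the widest negative value.

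The number of calls rested on few replicates. Leaving out any of the 4 GFP replicates left 1 in its group, so no count of calls is given for those fits. With Myb, 3 members were called without KY-2 Myb array 1 (4.84%, against 28.1% of all genes). Without KY-2 Myb array 2, 4 were called (6.45%, against 28% of all genes). Rpl39l was called in each of the 17 alternatives that tested it, with either vector, and Rps7 in all 18 with Myb and in 15 of 18 with GFP. The calls of Rpl26, Rpl30, Rpl41 and Rps27l with GFP were lost without any 1 of the 4 GFP replicates. With a trended prior 15 members were called with GFP (24.2%, against 31.9% of all genes) and 21 with Myb (33.9%, against 34.2%), so with Myb the gap to all genes nearly closed there.

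Between the lines the members' values were mostly small. The median was 0.033 with GFP and 0.0523 with Myb, against -0.0386 and -0.0136 over all genes, and 42 and 43 members were positive. With GFP the median moved to 0.0977 after median centring (0.0261 over all genes), and to 0.0226 after a second quantile normalization, where it lay under that of all genes (0.0393). The median size was 0.0674 and 0.0856 for members, against 0.188 and 0.161 for all genes. The 95% interval lay within 1.5-fold for 59 members with GFP and 61 with Myb, against 67% and 77% of all genes. Rpl39l lay outside in both, and Rpl22 and Rpl34 with GFP. These sizes and intervals, too, were not compared with those of other genes of like brightness.

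Replicates of the lines did not overlap for 36 members with GFP (62.9% of all genes), 26 of them higher in KY-2, and for 27 with Myb (42.3% of all genes), 18 of them higher. Over both vectors, with 5 replicates per line, the lines did not overlap for 15 members (24.2%), against 29.9% of all genes. Of these, 11 were higher in KY-2 (Rpl10, Rpl10a, Rpl22, Rpl26, Rpl27, Rpl36a, Rpl39l, Rpl41, Rpl7a, Rps15 and Rps7) and 4 were lower (Rpl30, Rplp0, Rps18 and Rps29). The line differences with GFP and with Myb come from separate arrays. They had the same sign for 49 members (79%, against 74.5% of all genes), with a Pearson r of 0.801 and a Spearman rho of 0.763 across the 62 genes; over all genes these were 0.904 and 0.743. Genes are not independent replicates, and every value shares the 2 lines.

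**Figure D4:**
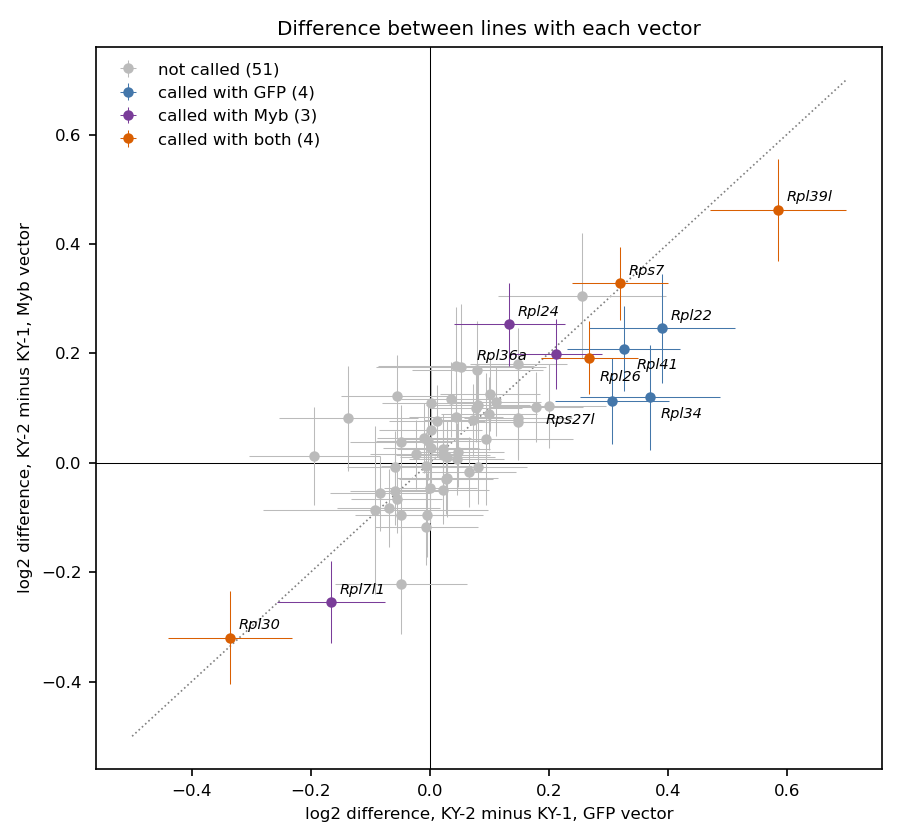
Log2 difference, KY-2 minus KY-1, with the Myb vector (vertical) against the GFP vector (horizontal) for 62 ribosomal protein genes, with SE bars and a dotted line of equality. Colours show calls at adjusted p under 0.05: 4 members with both vectors, 4 with GFP alone, 3 with Myb alone and 51 with neither.

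Paralogs and parents could be set side by side in few cases. Rpl7, the parent form, differed by -0.11 (95% interval -0.29 to 0.06) with Myb in KY-1 while Rpl7l1 differed by 0.22 (0.04 to 0.40); the difference between the genes was not tested. Rpl10 differed between lines by 0.08 and 0.10 and its testis form Rpl10l by 0.09 and 0.04, none of them called. Rps4x differed by 0.01 and 0.08 and Rps4l by 0.05 and 0.17, also not called. Rpl22l1, Rpl36al and Rps27 had no probe set of their own.

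One replicate was the lowest for many members. KY-1 Myb array 2 was the lowest of the 10 replicates for 21 of 62 members and the highest for 6, while it was the lowest for 8.83% and the highest for 14.3% of all genes. The median of the 62 levels was 12.549 on it, and 12.631 to 12.699 on the others. KY-2 Myb array 2 was the highest for 14 members, against 8.24% of all genes. Without KY-1 Myb array 2, 0 members were called for Myb in KY-1 (0.712% of all genes), and the members' median difference was 0.00323. With Myb, 5 members were called between lines without that array (8.06%, against 29.3% of all genes).

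**Figure D5:**
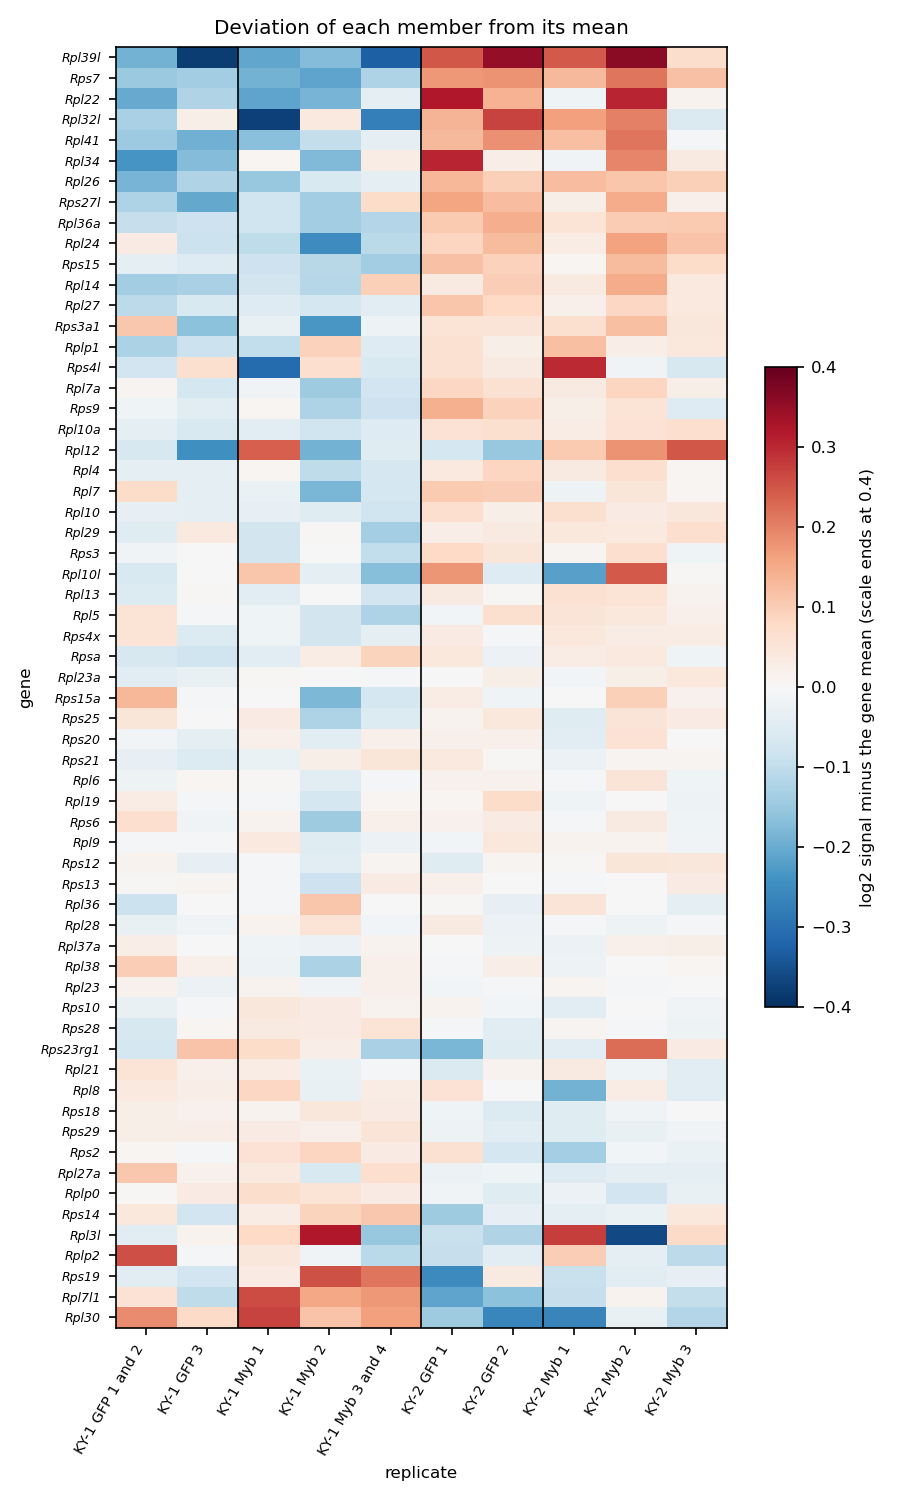
Log2 signal of each of 62 ribosomal protein genes (rows) on 10 replicates (columns) minus the gene's mean, ordered by the line difference; black lines separate the groups and the colour scale ends at 0.4. The KY-1 Myb 2 column is the bluest over the middle rows, and over all rows it is the lowest replicate for 21 members.

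Several probe sets existed for 39 members, up to 14 for Rps12. Of the 156 probe sets not used, 119 had the sign of the one used for Myb in KY-1 and 118 in KY-2, and 129 and 142 for the line difference with GFP and with Myb. All probe sets of a gene had 1 sign for 24 genes in KY-1 and 21 in KY-2, and for 29 and 31 between lines. Rpl13, with 9 probe sets, ran from -0.02 to 0.01 for Myb in KY-1, and Rpl23a, with 13, from -0.06 to 0.04. Rpl23 differed most between its own 2 probe sets, at -0.01 and 0.23 for the lines with GFP. A total of 7 probe sets held the same values as the one used, among them both others of Rpl41.

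Genes around the ribosome were read from lists, beside shares of all genes called between lines of 28.9% with GFP and 31.6% with Myb. Of 6 ribosome fusion and associated genes, 0 were called for Myb and 1 was higher in KY-2 with each vector: Naca, of the nascent chain complex, by 0.26 (adjusted p = 0.0337) and 0.29 (adjusted p = 0.00563). Of 32 translation factors, 0 were called for Myb. Between lines 7 were higher and 6 lower with GFP, and 8 higher and 7 lower with Myb. Eef2, which moves the ribosome along the mRNA, was 0.59 and 0.61 higher in KY-2, and Eif4ebp1, a translation repressor under mTORC1, fell by 0.77 and 0.48 there.

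Of 40 ribosome biogenesis genes, Nop2, an rRNA methyltransferase, was called for Myb averaged over the lines, at 0.25 (SE 0.06, adjusted p = 0.0438). That call was lost after median centring and when any replicate but the averaged KY-1 Myb arrays was left out. Between lines 9 were higher and 9 lower in KY-2 with GFP, and 14 and 14 with Myb. Rrn3 and Taf1b, factors of RNA polymerase I, were higher in KY-2 by 1.10 and 1.22 and by 1.05 and 1.11. Heatr1, of the small-subunit processome, fell by 0.63 and 0.64.

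Of 6 snoRNA host and other 5′ TOP genes, 0 were called for Myb, and 2 were higher and 1 lower in KY-2 with GFP and 2 higher with Myb. A list of 23 genes held 14 of mTORC1, the Rps6k kinases and Larp proteins, and 9 transcription factors such as Myc and Yy1. Of the 14, Rps6ka3 was lower with Myb averaged over the lines (-0.38, SE 0.07, adjusted p = 0.0174), a call lost without the averaged KY-1 GFP arrays or either KY-2 GFP array. Between lines 2 of the 14 were higher and 3 lower with GFP, and 2 higher and 5 lower with Myb. Of the 9 transcription factors, 0 were called for Myb, and 2 were higher and 4 lower in KY-2 with either vector. Mycn was 2.10 and 2.16 higher in KY-2, and Myc fell by 1.47 and 1.58. The shares called between lines were 40.6% and 46.9% of translation factors and 45% and 70% of biogenesis genes, beside 12.9% and 11.3% of the ribosomal proteins and 28.9% and 31.6% of all genes. The difference between these shares was not tested.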

How the data were processed

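The deposited unit is log2 signal, with 1 value per probe set on each of 12 Affymetrix arrays. The submitters' processing notes name Partek and RMA; the sources used here give no options or versions. Of 35556 probe sets, 21789 carried 1 symbol, and the brightest over 12 arrays stood for each of 19938 genes, with no filter on dim signals. Member symbols were checked against the RefSeq table by Entrez identifier, and 0 changed. Over 10624 probe sets with a mean above 7, the averaged pairs had robust SDs of their log2 differences of 0.0433 to 0.0469, and other pairs 0.102 to 0.172. One linear model of the 4 group means was fitted with limma 3.58.1 in R 4.3.3, with 6 residual and 4.89 prior degrees of freedom, Benjamini-Hochberg adjustment over all genes and a threshold of 0.05, and was tested on simulated data. Intervals are at 95%. Named members were mostly taken from those called, the 5 highest and lowest per contrast, and the 5 brightest and dimmest. Members of fixed roles and members whose probe sets differ in sign were added. Not every member of these sets is named. The members and lists were chosen with earlier results of these data known. The number of arrays limits the precision.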

Additional observations from a re-analysis of the deposited data

Results flagged for a closer look

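The Myb effect on Myb itself differed between the lines, by a test of the difference: the log2 effect was 3.11 larger in KY-2 than in KY-1 (SE 0.11, adjusted p = 3.84e-07 by limma). With GFP, the Myb level in KY-2 differed from that in KY-1 by -2.94 (SE 0.09, adjusted p = 1.56e-09 by limma). With the Myb vector the lines differed by 0.17 (SE 0.07, adjusted p = 0.094). The larger effect in KY-2 thus went with a lower level under GFP, while the levels with the Myb vector were close. Among the 62 ribosomal protein genes 0 had a Myb effect called different between lines, and 0 did at an unadjusted p under 0.05.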

How the results depend on the processing

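For the Myb effect of KY-1, of KY-2, of both averaged, and for its difference between lines, 0 ribosomal protein genes were called in each of the 18, 18, 17 and 17 alternatives, replicate block included. For KY-2 against KY-1, the counts of 8 with GFP and 7 with Myb became 15 and 21 with a trended prior. These were 24.2% and 33.9% of members, against 31.9% and 34.2% of all genes. With Myb, 11 were called with all 12 arrays as separate replicates (17.7%, against 36.2% of all genes). A filter on dim genes also gave 11 with Myb (19.3% of the 57 members kept, against 59.5% of all genes kept). The cause was not tested. Leaving out 1 Myb replicate gave 8 members with GFP (12.9%, against 27.8% to 29.2% of all genes). With Myb it gave 3 to 5 members (4.84% to 8.06%, against 27.4% to 29.3% of all genes). Leaving out a GFP replicate left 1 in its group, so no counts are given for it. The replicate block gave 9 and 6 (14.5% and 9.68%, against 31.1% and 30.7% of all genes). Between groups, deviations of same-numbered samples correlated at -0.374 to 0.229 (median -0.067, 15 pairs). Those of samples with other numbers correlated at -0.362 to 0.393 (median 0.0388, 38 pairs). The close pairs of arrays carry different numbers, so these values cannot show whether the numbers pair the samples. The block is therefore given as a fit only. Median centring gave 8 and 6 (26.6% and 30.4% of all genes), and a second quantile normalization 8 and 7 (29.1% and 32.1%). The mean of probe sets gave 8 and 8 (28.9% and 31.6% of all genes), and the compared groups alone 6 and 5 (26.9% and 29.3%). Over all members and alternatives of the line comparisons, a call was lost in 61 cases (28 with GFP, 33 with Myb) and gained in 45 (13 and 32). No call reversed its direction. The member estimates followed across alternatives were those called and the 5 highest and 5 lowest per contrast. They were thus picked for their size, and the sign of smaller estimates was not followed. Of the uncalled ones followed, 3 changed sign. Rpl34 for Myb in KY-2 went from -0.09 to 0.05 without KY-2 GFP array 1. Rpl3l for Myb in KY-2 went from 0.10 to -0.04 without KY-2 Myb array 1. Between lines with GFP, Rpl3l went from -0.09 to 0.01 after a second quantile normalization.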
